A study of Mus musculus with 11 samples.

Results

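Adult mouse bone marrow cells were compared with perinatal bone marrow cells labelled as negative for Sca1. The comparison used 5 of the 11 RNA sequencing libraries of a study of the insulin-like growth factor 1 receptor (IGF1R). The adult group was the 3 libraries sorted as adult PDGFRa+CD51+ cells, titled only "neg" with a number and with no word on what they lacked, and the perinatal group was the 2 libraries sorted as postnatal PDGFRa+Sca1- cells, numbered 2 and 3. The wild-type libraries of postnatal PDGFRa+Sca1+ cells, 3 in number and Cre-negative by title, served as background, and the IGF1R knockout libraries were not used. All 8 libraries were polyA RNA of wild-type bone marrow cells that the study calls bone marrow mesenchymal stem cells (BMMSCs), with no agent, age or strain named. The labels do not say whether replicates came from different animals. A p-value here reflects variation among these libraries alone, perhaps technical. Age, the second sort antigen (CD51 or Sca1) and the deposited table each group came from differed together, and cannot be told apart.

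PDGFRa is a receptor for platelet-derived growth factors that marks stromal cells of marrow, bone and connective tissue. CD51 is the integrin alpha V chain, encoded by Itgav, which stromal cells and phagocytes such as macrophages both carry. Sca1 is a membrane-anchored surface protein encoded by Ly6a and is a usual marker of immature connective tissue progenitors. Perinatal marrow cells lie in growing bone, beside cartilage, tendon and periosteum, whereas adult marrow stroma supports blood formation through secreted factors such as Cxcl12 and stem cell factor (Kitl).

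Marker levels went against some labels. Ly6a, which stood in the table of the Sca1 comparison only, had 10159 and 9112 counts in the libraries labelled Sca1-negative and 239 and 145 in the libraries labelled Sca1-positive 2 and 3. Ly6c1, of the same antigen family, had 4130 and 4136 against 225 and 143. The gene for the sorted-out antigen was thus higher in the libraries labelled as lacking it, and the group is called "labelled Sca1-negative" throughout. The library labelled Sca1-positive 1 correlated with the 2 labelled Sca1-negative libraries at 0.976 and 0.966 (Pearson's r of log2 levels across genes, a description), above its 0.944 and 0.934 with its own group. Values against the labelled Sca1-positive group include that library unless its omission is stated. The adult libraries correlated with each other at 0.989 to 0.993, and with the labelled Sca1-negative libraries at 0.626 to 0.648.

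The sort genes gave the other check of the labels. Pdgfra (chr5:75152292-75198215, mm10) stood at 14.3, 12.2 and 13.5 CPM (counts scaled to library totals) in the adult libraries and at 353 and 348 in the labelled Sca1-negative libraries. Adult Pdgfra was lower by a log2 difference of -4.77 ± 0.16 (SE; edgeR quasi-likelihood test, adjusted p = 1.3e-06), with no overlap between the groups. Itgav (chr2:83724397-83806916) stood at 272, 247 and 286 CPM in the adult and 55.7 and 51.4 CPM in the perinatal libraries, a log2 difference of 2.27 ± 0.17 (edgeR adjusted p = 2e-05). The adult libraries thus held RNA of the CD51 gene at a high level and of the PDGFRa gene at a low level, though both antigens name their sort.

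Across all genes, 14252 genes stood in both deposited tables and 13281 had enough counts to be tested. In the adult libraries 4626 genes were higher (34.8%) and 5133 were lower (38.6%) at an edgeR adjusted p under 0.05, with a median log2 difference of -0.08 over all genes tested. Against the labelled Sca1-positive libraries, 4853 of 13250 genes were higher (36.6%) and 5255 were lower (39.7%). With so many genes called, the counts for a gene list are read against these shares. The shares cover only genes in both tables, and leave out 242 genes with at least 50 counts in each adult library. Also left out were 10 genes with at least 50 counts in each labelled Sca1-negative library. Total counts per library lay between 13412316 and 17275839 in the 5 libraries. A gene with 0 counts in an adult library could still have stood at up to 0.161 to 0.210 CPM there, taking 3 counts as the floor, and these limits cover counting error only.

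Most adult differences remained when the labelled Sca1-negative libraries took the place of the labelled Sca1-positive ones. Of the 4853 genes higher in adult than in labelled Sca1-positive libraries, 4314 (88.9%) were also higher than in labelled Sca1-negative libraries, 539 (11.1%) were not called and 0 were lower. Of 5075 genes lower and tested in both comparisons, 4661 (91.8%) were also lower, 411 (8.10%) were not called and 3 were higher. The comparisons share the adult libraries, so these counts are not independent of each other. Without the library labelled Sca1-positive 1, 5191 genes (38.1%) were higher and 5824 (42.8%) lower than in the labelled Sca1-positive group. Of the 5191, 4343 (83.7%) were also higher against the labelled Sca1-negative libraries and 22 lower. Of 5387 lower and tested in both, 4716 (87.5%) were also lower and 28 higher. With all libraries, the 3 genes that changed side, named after their values were seen, were Sp7, Col10a1 and Gjb2, of which Sp7 encodes a transcription factor of bone-forming cells and Col10a1 the collagen of enlarged cartilage cells. The perinatal groups themselves differed by 0 genes in either direction in a fit of all 8 libraries (edgeR; 475 higher and 772 lower at an unadjusted p under 0.05). Without the library labelled Sca1-positive 1, 477 genes (3.46%) were higher and 692 (5.02%) lower in the labelled Sca1-negative libraries.

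The genes highest in adult cells are known from macrophages, the phagocytes of marrow that clear dead cells and recycle red cells. Promoter sequences of these and of the interferon-stimulated genes are shown because most tested members of each list were higher in adult cells. Each class also has a textbook regulator with a short recognition sequence. PU.1, encoded by Spi1, binds GAGGAA in many macrophage promoters, and interferon-activated factors bind the interferon-stimulated response element, searched here as GAAA, any 2 bases and GAAA again. The stretches below are the 150 bases before the RefSeq start site, 5′ to 3′ on the gene's strand (RefSeq, GRCm38.p6). Matches to GAGGAA or to the response element, on either strand, are in capitals. Only higher members with a match within these bases were shown, by size of difference, so the stretches do not represent their lists.
C1qb, chr4:136886201-136886350, minus strand: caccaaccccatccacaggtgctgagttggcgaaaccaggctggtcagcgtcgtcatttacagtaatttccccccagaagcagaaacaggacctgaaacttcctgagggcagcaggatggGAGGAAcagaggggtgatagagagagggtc
Mrc1, chr2:14229264-14229413, plus strand: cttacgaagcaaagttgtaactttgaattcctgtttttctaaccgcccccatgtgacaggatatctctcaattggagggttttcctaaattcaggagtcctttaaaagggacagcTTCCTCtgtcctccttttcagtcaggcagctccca
Laptm5, chr4:130913166-130913315, plus strand: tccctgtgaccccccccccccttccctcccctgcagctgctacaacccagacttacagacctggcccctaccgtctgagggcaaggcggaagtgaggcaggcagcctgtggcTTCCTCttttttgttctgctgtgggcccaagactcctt
Oas1a, chr5:120907526-120907675, minus strand: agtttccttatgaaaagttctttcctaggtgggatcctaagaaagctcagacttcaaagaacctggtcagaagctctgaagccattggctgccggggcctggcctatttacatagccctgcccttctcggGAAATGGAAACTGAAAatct
Bst2, chr8:71537473-71537622, minus strand: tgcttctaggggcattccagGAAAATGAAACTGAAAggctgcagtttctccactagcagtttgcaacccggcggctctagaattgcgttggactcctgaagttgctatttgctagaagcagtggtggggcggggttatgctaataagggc
Rsad2, chr12:26456453-26456602, minus strand: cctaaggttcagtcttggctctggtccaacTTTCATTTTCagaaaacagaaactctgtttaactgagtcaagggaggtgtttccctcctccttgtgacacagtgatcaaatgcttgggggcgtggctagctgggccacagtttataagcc

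In windows of 300 bases (250 before to 50 after the start), GAGGAA on either strand stood in 7 of the 10 macrophage members that were higher in adult cells and had a window, and in 28.3% of all 27025 windows. Its longer form GAGGAAGT stood in 2 of the 10 and in 3.28% of all. The response element stood in 8 of the 11 interferon-stimulated members that were higher and had a window, and in 3.49% of all windows. Among 16 immediate early members that were lower and had a window, TGACGTCA stood in 2 (1.88% of all windows) and the CArG box in 1 (1.57%). In Oas1a and Bst2 a pair of overlapping matches runs together in the printed stretch. These are matches of letters and no measurement of binding.

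All 15 macrophage markers that could be tested were higher in adult cells, with a median log2 difference of 8.66. They are 15 of the 22 listed genes, and the other 7 (Adgre1, Mpeg1, Itgam, Cd5l, Cd163, Aif1 and Cx3cr1) stood in the adult table only. Lyz2, the lysozyme of phagocytes, stood at 11435, 11768 and 10355 CPM in the adult libraries against 11.9 and 13.8, a log2 difference of 9.71 ± 0.30 (edgeR adjusted p = 1.2e-06). Csf1r, the receptor that macrophages need to survive, stood at 1538, 1299 and 1633 CPM against 4.67 and 6.13. The groups were far apart at each of these genes, while the adult libraries lay close to each other. Spi1 itself stood at 248, 253 and 253 CPM against 0.862 and 3.18, a log2 difference of 6.91. C1qb, a chain of complement C1q made by tissue macrophages, stood at 2008, 2160 and 1994 CPM against 1.22 and 2.04.

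The 12 genes with the largest rise among well expressed genes come from the same fit. Some, such as C1qb and Lyz2, are list members given above, so the 12 are no separate support. They were Fcrls (log2 difference 11.89), Ctss, Inpp5d, Syngr1, Nckap1l, C1qc, C1qb, Cyth4, C1qa, Pld4, Lyz2 and Itgb2 (9.69), most of them genes of phagocyte signalling, complement or lysosomal proteolysis. Among genes in the adult table only, Mpeg1 had 58334, 68442 and 43695 counts in the adult libraries and Adgre1, which encodes the macrophage antigen F4/80, had 15724, 17895 and 11812. The labelled Sca1-negative libraries have no value for these genes here, so no difference was tested. By summed counts, the 15 macrophage members in both tables took 2.74 to 2.98% of the adult libraries and 0.0212 to 0.0228% of the labelled Sca1-negative libraries. None of the 15 was at 0 in either group, but the join keeps only genes that the Sca1 table lists. Members in the adult table only do not enter these shares. Whether macrophage RNA in the adult sort bears on the other differences was not tested, and in bulk RNA fewer cells of a type cannot be told apart from less RNA per cell.

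**Figure D1:**
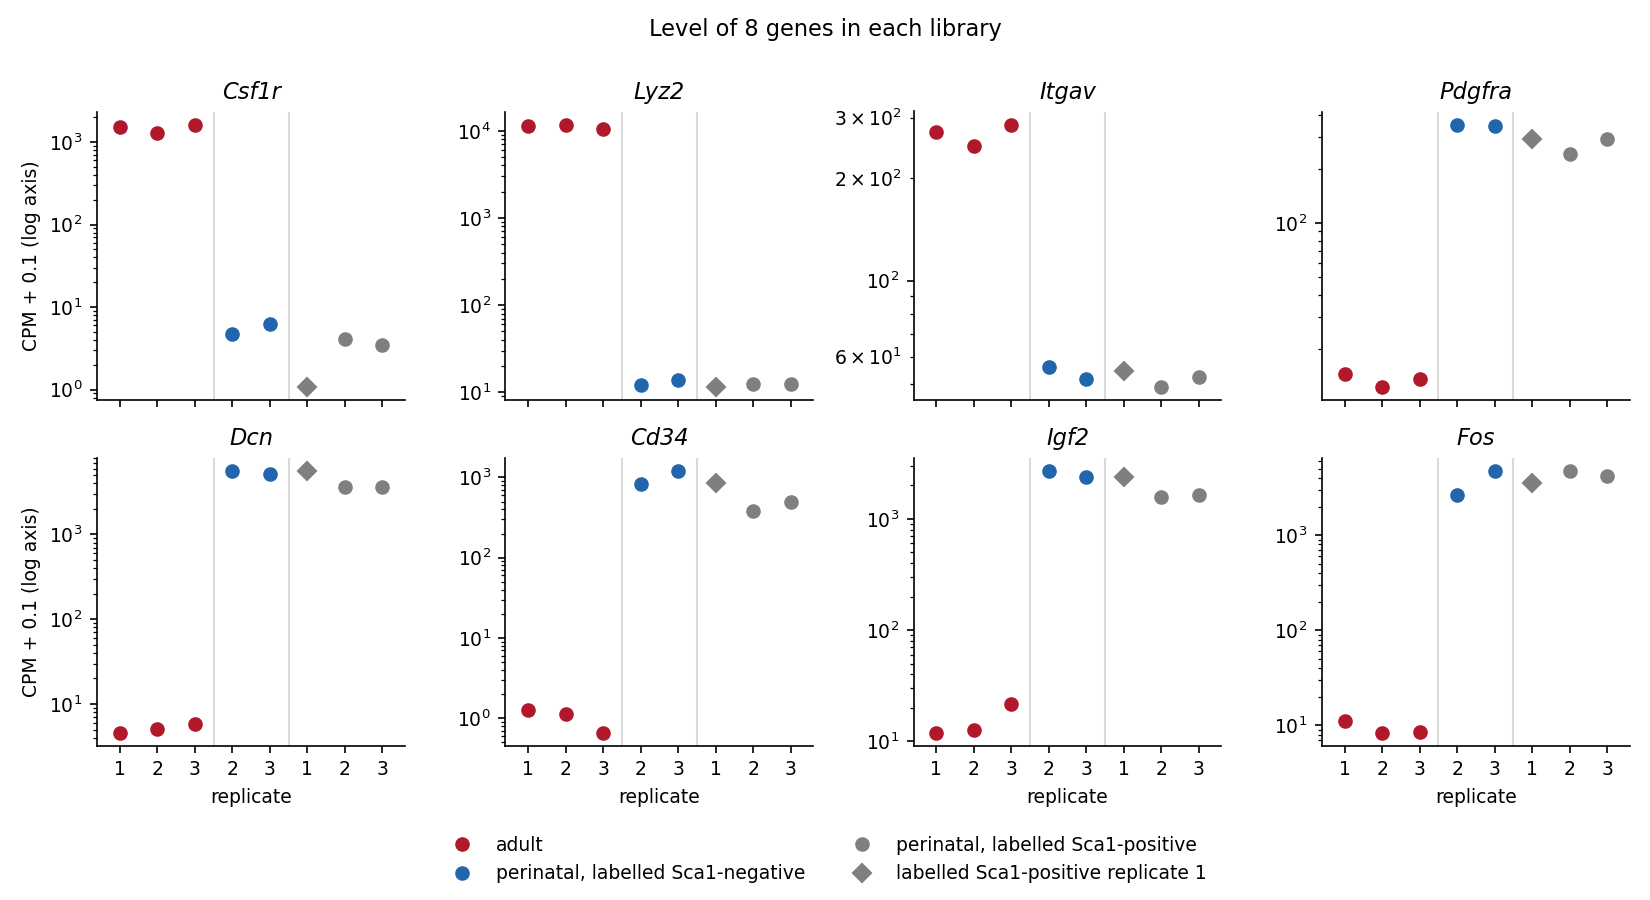
Level of 8 genes in each library, as CPM plus 0.1 on a log axis, with 1 point per library (adult red, labelled Sca1-negative blue, labelled Sca1-positive grey, its replicate 1 a diamond). Csf1r, Lyz2 and Itgav are high in the 3 adult libraries, and Pdgfra, Dcn, Cd34, Igf2 and Fos are high in all 5 perinatal libraries, with no overlap between adult and perinatal points.

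Lysosomal genes were higher in adult cells too. Of 22 members, 18 were higher, 0 were lower and 4 were not called, with a median log2 difference of 1.75, and their share of counts was 4.02 to 4.24% in adult and 0.504 to 0.585% in labelled Sca1-negative libraries. Ctsd, the main acid protease of lysosomes, was higher by 4.60, Ctsb by 3.52, the acid lipase gene Lipa by 3.61, the cholesterol exporter gene Npc1 by 2.99 and the membrane protein gene Lamp1 by 1.65, all on the log2 scale. Apoe, a lipid carrier that macrophages and stroma both secrete, stood at 18209, 21399 and 19584 CPM in adult cells against 172 and 152. Per length, it was the most abundant adult transcript at 41160 ± 1887 TPM (length-scaled transcript abundance; SD, n = 3), followed by Fth1 (20710 TPM) and Lyz2 (18160 TPM). In the labelled Sca1-negative libraries the leading transcripts were Sparc (10960 TPM), which encodes a bone matrix glycoprotein, and Crip1 (10760 TPM). Of 12 tested genes of iron recycling (15 listed), 8 were higher and 2 were lower, with Hmox1, the enzyme that opens heme, higher by 1.87.

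Antigen presentation and interferon response were also higher. Of 14 tested antigen presentation genes (16 listed) 12 rose and 0 fell, with the class I chain gene H2-K1 at 1290, 1438 and 1279 CPM in adult against 46.3 and 39.9 in labelled Sca1-negative libraries. Of 21 tested interferon-stimulated genes (22 listed) 15 were higher and 2 lower, with a median of 1.66. Oas1a, whose product senses double-stranded RNA, stood at 37.7, 41.8 and 35.6 CPM against 1.65 and 1.66, with no overlap (log2 difference 4.47 ± 0.21, edgeR adjusted p = 3e-06). Bst2, a surface protein that tethers budding viruses, was higher by 1.97 and the ubiquitin-like Isg15 by 1.66. Rsad2 was higher by 1.96 and lost its call without adult replicate 2 (edgeR adjusted p = 0.0663). Xaf1 was lower by 1.23, and the other lower member, Ifi35, kept its call in 6 of 15 alternative settings.

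Cartilage and bone genes had other medians against each perinatal group. The cartilage list took 0.109 to 0.948% of counts in the labelled Sca1-positive libraries, 0.0912 to 0.103% in the labelled Sca1-negative libraries and 0.0232 to 0.0292% in adult libraries. Of its 20 tested members (22 listed), 17 were lower in adult than in labelled Sca1-negative cells, 2 were higher and 1 was not called. The median was -5.90, or -4.94 with the 5 members at 0 in all adult libraries set to their bound. Against the labelled Sca1-positive libraries, 20 of 21 tested members were lower, none was higher and the median was -8.72 (22 of 22 and -9.09 without library 1). Cartilage genes thus remained lower against perinatal libraries poor in them, with a smaller median, and the 17 became 11 when genes at 0 in a group were left out.

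Single cartilage genes behaved differently. Acan (chr7:79053483-79115099), the main proteoglycan of cartilage, stood at 0, 0.0537 and 0 CPM in adult and at 155 and 166 CPM in labelled Sca1-negative libraries, a log2 difference of -12.56 ± 0.36 (edgeR adjusted p = 1.2e-06). Cnmd, a cartilage glycoprotein gene at 0 in all adult libraries and 47.0 and 52.6 CPM in the perinatal ones, was at least 280-fold lower. Col2a1, the main cartilage collagen, stood at 49.5, 40.3 and 72.1 CPM in adult against 53.6 and 122 CPM, and the groups overlapped. Its log2 difference of -0.76 ± 0.37 was not called (edgeR adjusted p = 0.101; 0.00792 to 0.911 over the alternatives, called without adult replicate 3, without labelled Sca1-negative replicate 2 and with a replicate block), whereas against the labelled Sca1-positive libraries, at 76.1, 3741 and 4953 CPM, it was -5.79 (-6.36 without library 1). The high Col2a1 values lay in labelled Sca1-positive libraries 2 and 3 only. Without library 1, Col2a1 was lower in labelled Sca1-negative than in labelled Sca1-positive libraries by 5.63 on the log2 scale. Sox9, the transcription factor of cartilage progenitors, stood at 11.5, 4.24 and 6.43 CPM in adult against 88.1 and 93.5 and was lower by 3.67.

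The osteoblast list went in both directions. Of its 20 tested members (22 listed), 13 were lower, 5 were higher and 2 were not called against labelled Sca1-negative libraries, with a median of -1.80, while against labelled Sca1-positive libraries 14 of 19 were lower, 0 higher and the median was -3.69 (19 of 21 lower, 1 higher and -4.18 without library 1). The higher members included Spp1, Runx2, Sp7 and Bmp8a. The lower members included the matrix and mineral genes Bglap, Ibsp, Col1a1, Col1a2 and Phex. Leaving out labelled Sca1-negative replicate 2 brought the 5 higher members to 3, and a fit of all 8 libraries brought them to 2.

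Spp1 (chr5:104435118-104441050), the osteopontin gene of bone matrix that macrophages also express, stood at 1465, 1611 and 1282 CPM in adult libraries against 91.8 and 55.2 CPM in labelled Sca1-negative and 223, 4753 and 4654 CPM in labelled Sca1-positive libraries. It was higher in adult than in labelled Sca1-negative cells by 4.24 ± 0.31 (edgeR adjusted p = 1.9e-05), a call that held in all 15 alternative settings, and was not called against the labelled Sca1-positive group (-1.18 ± 0.87, edgeR adjusted p = 0.25). Without library 1 adult Spp1 was lower than in that group (-1.72 ± 0.12, edgeR adjusted p = 5.4e-06), so the adult level lay above the labelled Sca1-negative libraries and below libraries 2 and 3. Runx2, the master transcription factor of bone formation, stood at 12.9, 10.6 and 14.4 CPM against 4.67 and 4.31, a log2 difference of 1.43 ± 0.23 (edgeR adjusted p = 0.00093), and without library 1 was lower than in the labelled Sca1-positive group (-1.42). Sp7, which acts downstream of Runx2, stood at 1.31, 4.35 and 4.89 CPM against 0.718 and 1.06 in labelled Sca1-negative and 3.11, 24.7 and 25.1 in labelled Sca1-positive libraries. Sp7 was thus higher against the former by 1.92 ± 0.64 (edgeR adjusted p = 0.028) and lower against the latter by 2.37 on the log2 scale (by 2.87 without library 1).

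The calls on Runx2, Sp7, Col10a1 and Mmp13 were not equally firm. In a fit of all 8 libraries Runx2 had an edgeR adjusted p of 0.0732 and Mmp13 of 0.0624, and Sp7 was called in 10 of 15 alternative settings. Mmp13, the collagenase of growing bone, stood at 28.4, 64.8 and 52.6 CPM in adult against 3.38 and 7.56 CPM, with no overlap, and without library 1 was lower than in the labelled Sca1-positive group (-2.48). Col10a1 stood at 1.48, 1.45 and 0.769 CPM in adult against 0 and 0.303 CPM, a difference that rests on very few reads and lost its call in the fit of 8 libraries. Bglap, the osteocalcin gene of mature osteoblasts, went the other way: it stood at 0.164, 0.805 and 0.839 CPM in adult against 11.9 and 5.90, lower by 3.95, and against 16.6, 588 and 464 CPM in labelled Sca1-positive libraries it was lower by 9.26 (by 9.82 without library 1). Ibsp, a mineral-binding sialoprotein gene, was lower by 3.27 and by 7.70 in the same order (-8.18 for the latter without library 1). Col1a1, the main bone collagen, was lower by similar amounts against each group, 3.93 and 4.45 (-4.63 for the latter without library 1).

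**Figure D2:**
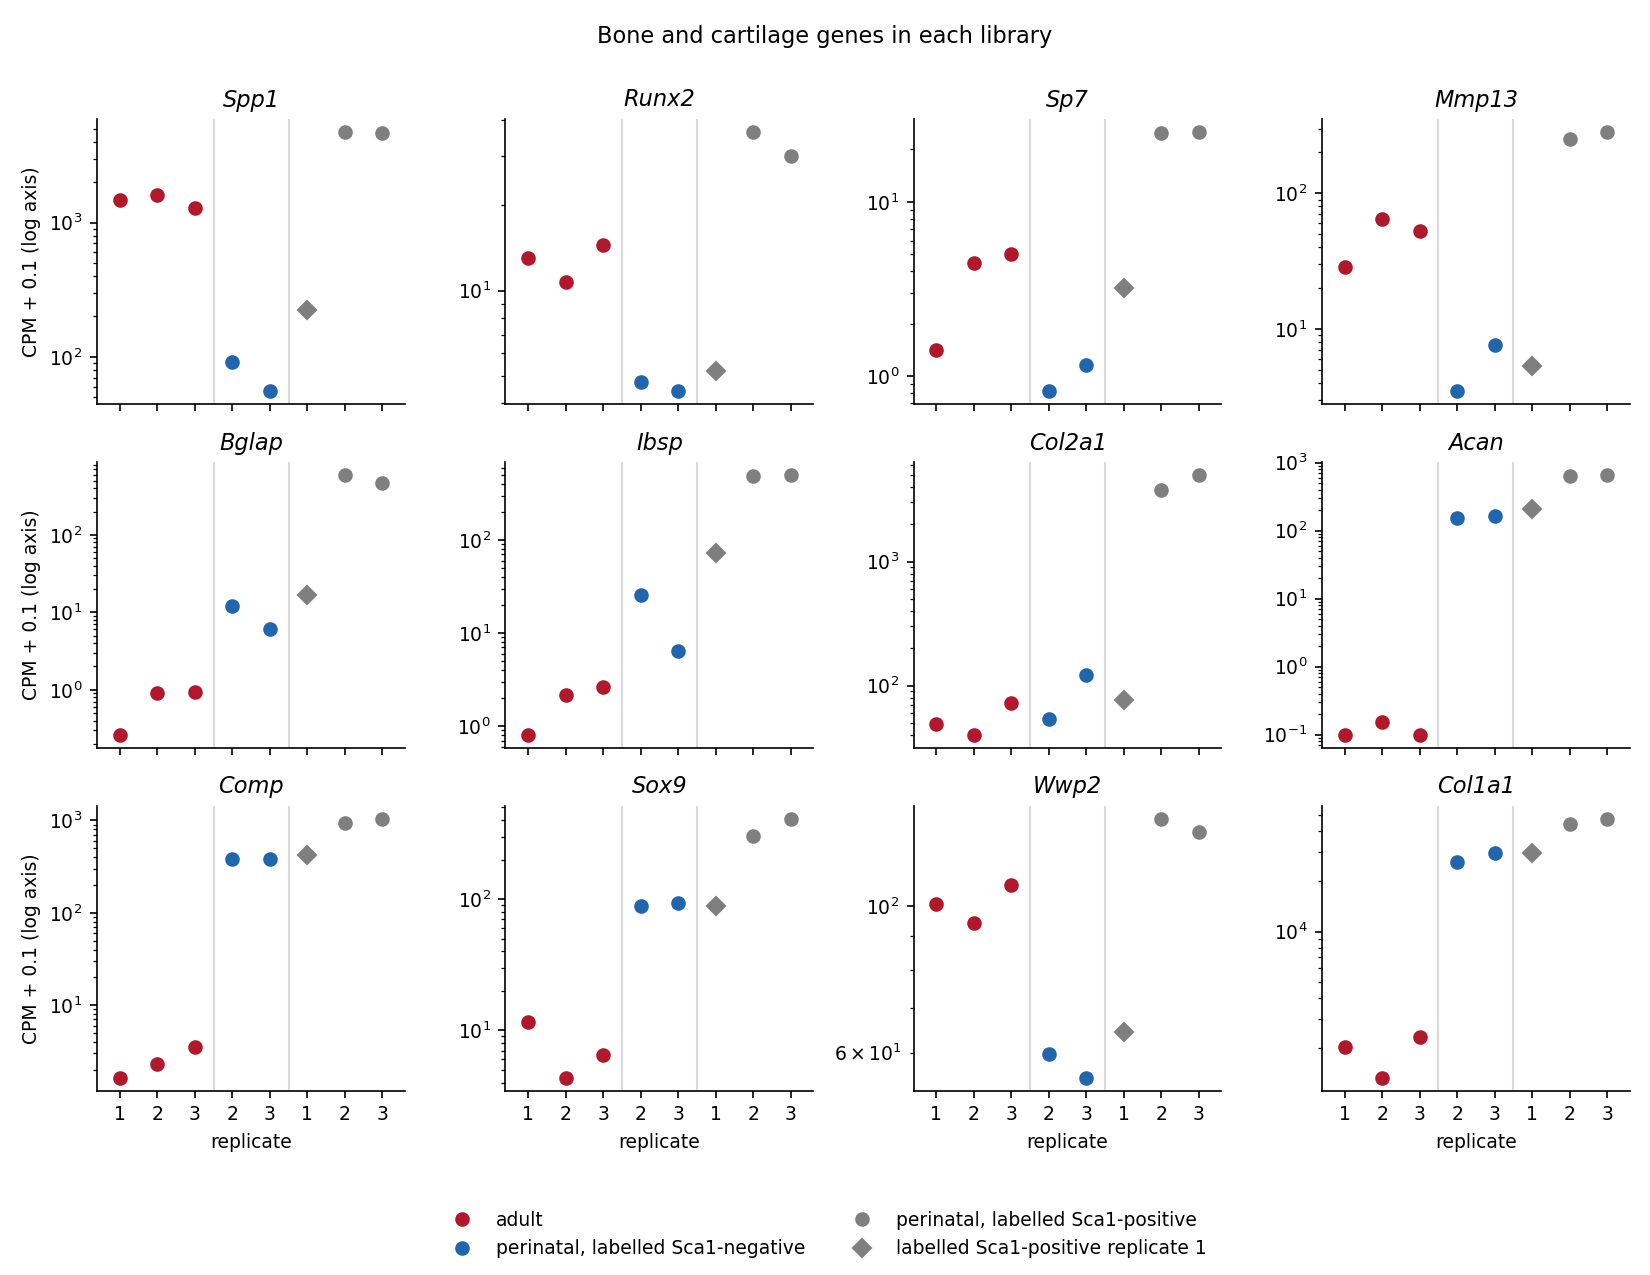
Level of 12 bone and cartilage genes in each library, as CPM plus 0.1 on a log axis, with the same colours as for the plot of 8 genes. Labelled Sca1-positive libraries 2 and 3 carry the high values of Spp1, Bglap, Ibsp and Col2a1, and library 1 (diamond) sits near the labelled Sca1-negative libraries. Adult Spp1, Runx2 and Mmp13 points lie between the labelled Sca1-negative libraries and labelled Sca1-positive libraries 2 and 3.

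Genes of fibroblast progenitors, the immature connective tissue cells of fascia and vessel sheaths, were lower in adult cells. Of 20 tested members (22 listed; Ly6a and Ly6c1 stood in the Sca1 table only), 19 were lower and 1, Anxa3, was higher (a call lost in the fit of 8 libraries), with a median of -5.98. Cd34, a sialomucin of progenitors and vessels, stood at 1.15, 1.02 and 0.559 CPM against 838 and 1209, and Dpp4 and Pi16, which mark early stages of these cells, were lower by 9.10 and 10.53. The list took 1.11 to 1.23% of counts in labelled Sca1-negative libraries, 0.988% in labelled Sca1-positive library 1, 0.318 to 0.399% in libraries 2 and 3 and 0.0460 to 0.0471% in adult libraries. Without library 1, 15 of 20 members were higher in labelled Sca1-negative than in labelled Sca1-positive cells and 0 were lower. Efemp1, a fibroblast glycoprotein gene, was lower in adult than in labelled Sca1-negative cells by 1.66 and was not called against the labelled Sca1-positive group (-0.38 ± 0.73, edgeR adjusted p = 0.65), but without library 1 it was higher than in that group (1.17 ± 0.25, edgeR adjusted p = 0.0028). Its call against the labelled Sca1-negative libraries was also lost in the fit of 8 libraries (edgeR adjusted p = 0.0776).

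Extracellular matrix genes fell with them, 23 of 25 members lower and 1 higher, with a median of -4.37. Dcn, a small proteoglycan of nearly all connective tissue, stood at 4.48, 4.94 and 5.66 CPM in adult libraries against 5646 and 5187, a log2 difference of -10.13 ± 0.25 (edgeR adjusted p = 1.2e-06). Fbln1, a glycoprotein gene of elastic fibres, was lower by 7.06. The list took 1.40 to 2.16% of adult counts and 7.67 to 8.88% of labelled Sca1-negative counts. Fn1, the fibronectin gene, was higher, at 9982, 5961 and 11264 CPM against 4013 and 4720, and lost its call without adult replicate 3 or labelled Sca1-negative replicate 2. Of 15 tested genes of tendon and periosteum (16 listed), 14 were lower and 1 higher, with a median of -3.24 against -5.86 in the comparison with labelled Sca1-positive libraries (-6.35 without library 1). Thbs4, a tendon matrix gene, was at 0 in every adult library and 2393 and 1665 CPM in the labelled Sca1-negative ones, at least 11384-fold lower. Kera was at least 486-fold lower and Tnmd was lower by 8.85, while Ccn2, which encodes a matrix-associated growth factor, was higher by 1.95. The 12 genes with the largest falls among well expressed genes with reads in both groups were Dpt (-15.67), Mfap4, Gpc3, Has1, Angptl1, Lum, Cxcl1, Osr2, Cilp, Tnxb, Acan and Sparcl1 (-12.46).

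**Figure D3:**
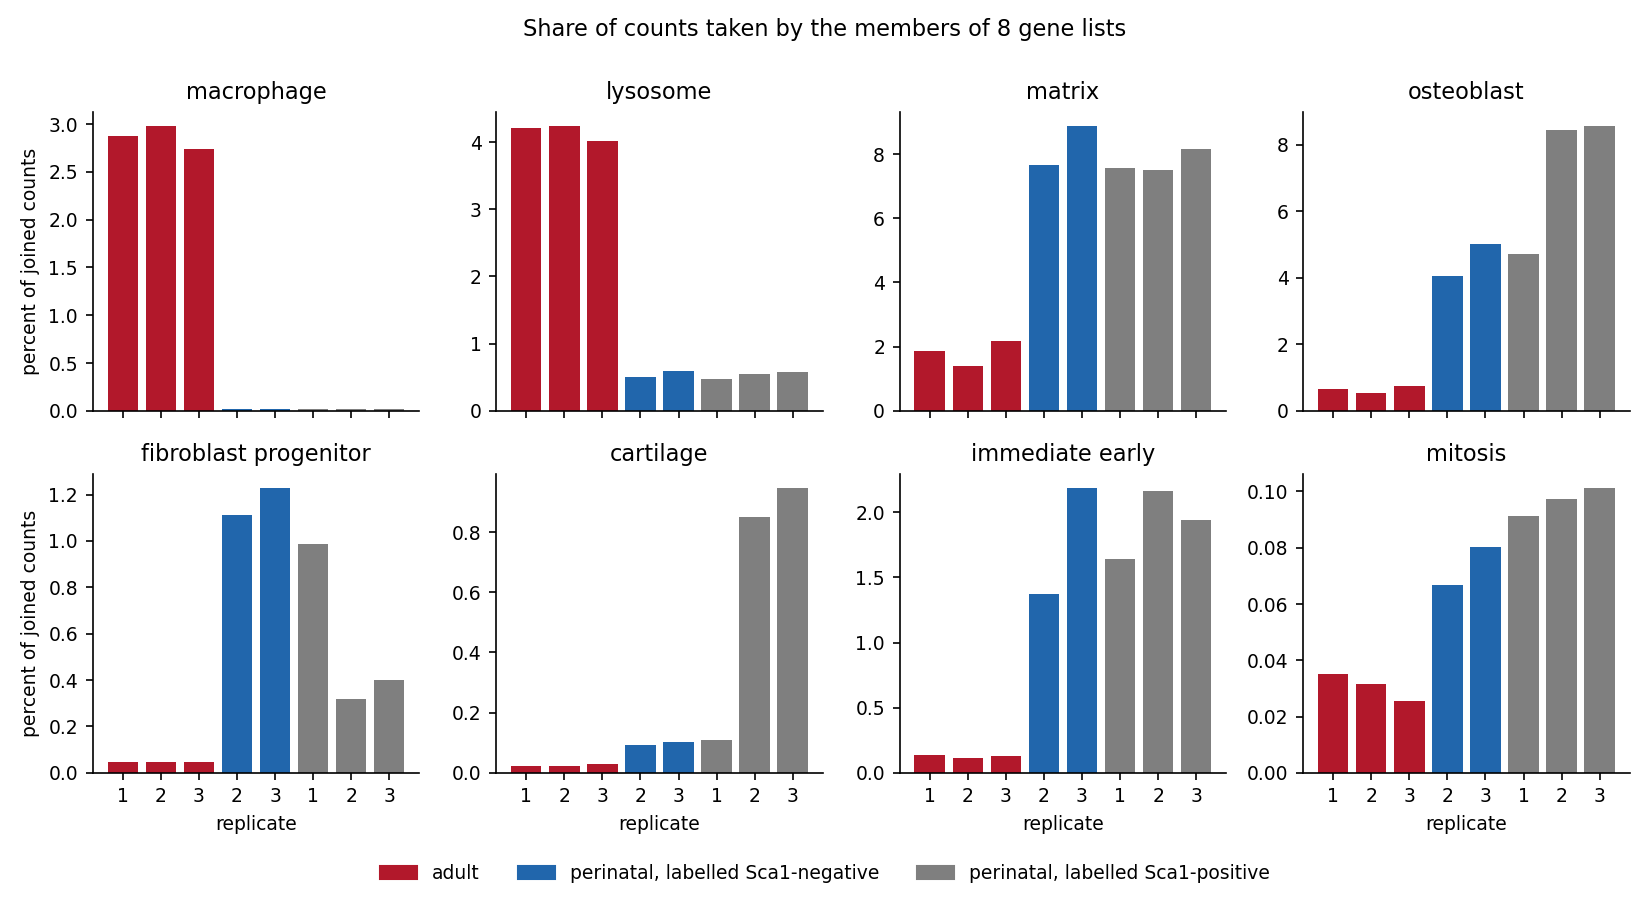
Share of each library's counts taken by 8 gene lists, in percent of counts over the 14252 joined genes, with 1 bar per library. Macrophage (2.74 to 2.98%) and lysosome bars are high in the adult libraries only, the other lists are low there, and the cartilage bars of the labelled Sca1-negative libraries match labelled Sca1-positive library 1 rather than libraries 2 and 3.

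The adult marrow niche genes went in both directions. Of 19 tested members (20 listed), 5 were higher, 9 lower and 5 not called, with a median of -0.60. Of all genes tested 34.8% were higher and 38.6% lower, so these counts are not read as a trait of the list. Cxcl12, which holds blood stem cells in marrow, stood at 241, 521 and 460 CPM in adult against 176 and 307, and the groups overlapped (0.70 ± 0.37, edgeR adjusted p = 0.13, and 0.00226 to 0.451 over the alternatives, called without adult replicate 1 and with a replicate block). Lepr, the leptin receptor that defines adult marrow stroma, stood at 0.656, 0.537 and 0.349 CPM against 38.4 and 27.6 and was lower by 6.01. Adipoq, another marker of these cells, had 0, 0 and 0.0699 CPM, so both defining markers were at or near 0 in the adult libraries. Kitl was not called (-0.39 ± 0.28, edgeR adjusted p = 0.24, and 0.022 to 0.595 over the alternatives, called without adult replicate 2).

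Other niche signals were higher. Grem1, a secreted inhibitor of bone morphogenetic proteins, stood at 252, 180 and 182 CPM against 3.02 and 3.10, a log2 difference of 6.01 ± 0.27 (edgeR adjusted p = 2.8e-06). Gas6, a bridging ligand between dying cells and phagocytes, was higher by 2.19 and Csf1, the ligand of Csf1r, by 1.69. The growth factor gene Ptn was lower by 11.58, the transcription factor genes Ebf1 and Ebf3 by 4.08 and 2.16. Counts were also taken per Pdgfra read, a scale on which the low adult Pdgfra raises every adult value. A gene lower by less than Pdgfra (-4.77) turns to higher there by arithmetic, so a turn is no separate result. Ebf1 stood at 1.06 to 1.42 in adult and 0.780 to 0.802 in labelled Sca1-negative libraries, and so turned to higher. Ebf3 (0.573 to 0.865 against 0.109 to 0.121) and Igf1 (14.5 to 25.3 against 1.92 to 2.99) turned as well. Cxcl12 stood at 16.8 to 42.5 against 0.498 to 0.882. Ptn stayed lower at 0.00763 to 0.0311 against 2.16 to 2.56, and Lepr at 0.0259 to 0.0458 against 0.0792 to 0.109. Spon1, Dcn, Igf2 and Dlk1 also stayed lower.

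The IGF axis, the subject of the study, was mostly lower in adult cells, with 15 of 21 tested members lower (22 listed), 4 higher and 2 not called. Igf1r, the receptor, stood at 47.3, 23.2 and 41.7 CPM in adult against 28.3 and 26.9 CPM, and was not called (0.38 ± 0.30, edgeR adjusted p = 0.279). Adult replicate 2 was the low value, and without it the difference was called (edgeR adjusted p = 0.0156). Igf2, the fetal growth factor, stood at 11.9, 12.7 and 21.7 CPM against 2700 and 2369 CPM, a log2 difference of -7.42 ± 0.34 (edgeR adjusted p = 3.2e-06). Igf1 was lower by 1.87, at 208, 310 and 218 CPM against 1056 and 667. The ligands were thus lower at levels without overlap, while the receptor gene was not resolved.

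Among the binding proteins, which hold IGFs in the matrix and in serum, Igfbp2, Igfbp3, Igfbp4, Igfbp5 and Igfbp6 were lower and Igfbp7 was not called (-0.42 ± 0.22, edgeR adjusted p = 0.118). Igfbp6 was lower by 9.46, Igfbp3 by 6.84, Igfbp2 by 5.46 and Igfbp5 by 3.14. The 4 higher members were Pappa, a protease that frees IGF from binding proteins, at 129, 123 and 163 CPM against 7.47 and 3.78 (log2 difference 4.55 ± 0.34, edgeR adjusted p = 2.2e-05), its inhibitor Stc2 (3.56), the insulin receptor Insr (1.84) and the signalling adaptor Irs1 (1.25). Values against the labelled Sca1-positive libraries were of the same sign, at -6.95 for Igf2, -8.56 for Igfbp6 and 3.84 for Pappa (-6.73, -7.96 and 3.69 without library 1).

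Igf2 belongs to the imprinted growth genes, a network active in fetal tissue and silenced after birth. Of 16 tested members (20 listed), 14 were lower, 1 higher and 1 not called, with a median of -6.39 (-5.30 with the 2 members at 0 in adult libraries at their bound). Dlk1, an inhibitor of fat cell formation, stood at 0.547, 0.215 and 0.210 CPM against 1367 and 1792. Mest was lower by 11.18, Peg3 by 9.12 and the cell cycle inhibitor Cdkn1c by 8.10, and Impact was higher by 1.57. Among 11 fetal growth regulators (14 listed), 4 were higher and 5 lower, near the 34.8% and 38.6% of all genes tested. Hmga2, a chromatin protein of fetal progenitors, stood at 57.0, 47.0 and 49.9 CPM in adult against 5.17 and 3.86 and was higher by 3.44, while Igf2bp1, an RNA-binding protein of embryonic cells, was lower by 6.19.

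Of 20 tested genes of limb and skeletal patterning (23 listed) 17 were lower, 0 higher and 3 not called, with a median of -2.10. Osr2 was lower by 12.93, and the limb identity factors Tbx4 and Tbx5 by 7.62 and 7.38. Prrx1, a factor of limb mesenchyme, was lower by 1.34 and stayed at 65.5, 74.5 and 61.3 CPM in adult cells. Of 25 tested Hox genes (30 listed), 13 were lower, 2 higher and 10 not called, against 38.6% lower and 34.8% higher over all genes tested. The higher Hoxc6 kept its call in 11 of 15 alternative settings. Hoxd10, Hoxd11 and Hoxd13, the distal limb members, had no adult counts and were lower by factors of at least 37.4, 18.6 and 31.6, while Hoxb4, known from blood cells, was higher by 2.99.

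Target genes of developmental signals fell as well, 20 of 25 lower and 3 higher. The hedgehog target Gli1 was lower by 6.85, Hhip had no adult counts and was lower by a factor of at least 350, and Ptch1, another target, was higher by 1.02. The Wnt inhibitor Sfrp2 was lower by 5.16. Dusp6, which switches off ERK signalling, was higher by 1.27 and Smad6, a brake on bone morphogenetic protein signals, by 1.22.

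Proliferation and respiratory genes were lower and glycolysis genes higher, with smaller medians. Of 20 mitosis genes 16 were lower and 0 higher, with a median of -1.48, and of 21 DNA replication genes 16 were lower and 0 higher. Cdc20, the activator of mitotic exit, stood at 13.7, 9.66 and 9.51 CPM in adult against 95.3 and 142 CPM. Mki67, the usual proliferation marker, stood at 51.2, 65.3 and 44.0 against 60.5 and 66.3 and was not called. Of 25 respiratory chain genes 23 fell and 0 rose, led by Ndufa1 at -3.16. Of 17 glycolysis genes 13 rose and 0 fell, with Pkm higher by 1.81, Gapdh by 1.28 and Aldoc by 5.87. Of 25 ribosomal protein genes 16 fell and 0 rose, though the count of rises became 4 without labelled Sca1-negative replicate 2, and reads of these genes may be split with near-identical pseudogenes.

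Immediate early genes, which are switched on within minutes by growth factors, stress or handling, were much lower in adult libraries. Of 22 members 19 were lower, 0 higher and 3 not called, with a median of -4.27. Fos stood at 11.1, 8.27 and 8.46 CPM in adult against 2674 and 4726 in labelled Sca1-negative and 3514, 4767 and 4252 in labelled Sca1-positive libraries, so all 5 perinatal libraries were high. Its log2 difference was -8.69 ± 0.35 (edgeR adjusted p = 2.1e-06). Fosb was lower by 8.40, the heat shock gene Hspa1a by 7.27, Nr4a1 by 6.80 and Egr1 by 6.49. The list took 0.114 to 0.134% of adult counts and 1.37 to 2.19% of labelled Sca1-negative counts.

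Inflammatory genes were mostly lower. Of 20 members 16 were lower, 2 higher and 2 not called, with a median of -4.18. The cytokine gene Il6 was lower by 9.94, the neutrophil attractant Cxcl1 by 13.05, the monocyte attractant Ccl2 by 6.40 and the feedback inhibitor Nfkbia by 5.45. Ccl11, an eosinophil attractant gene at 0 in adult libraries, was at least 188-fold lower. The 2 higher members, Tnf (4.06) and Il1b (2.69), are cytokines that macrophages secrete, and Il1b stood at under 2 CPM in every library. Whether differences in handling between the sorts bear on these genes was not tested.

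**Figure D4:**
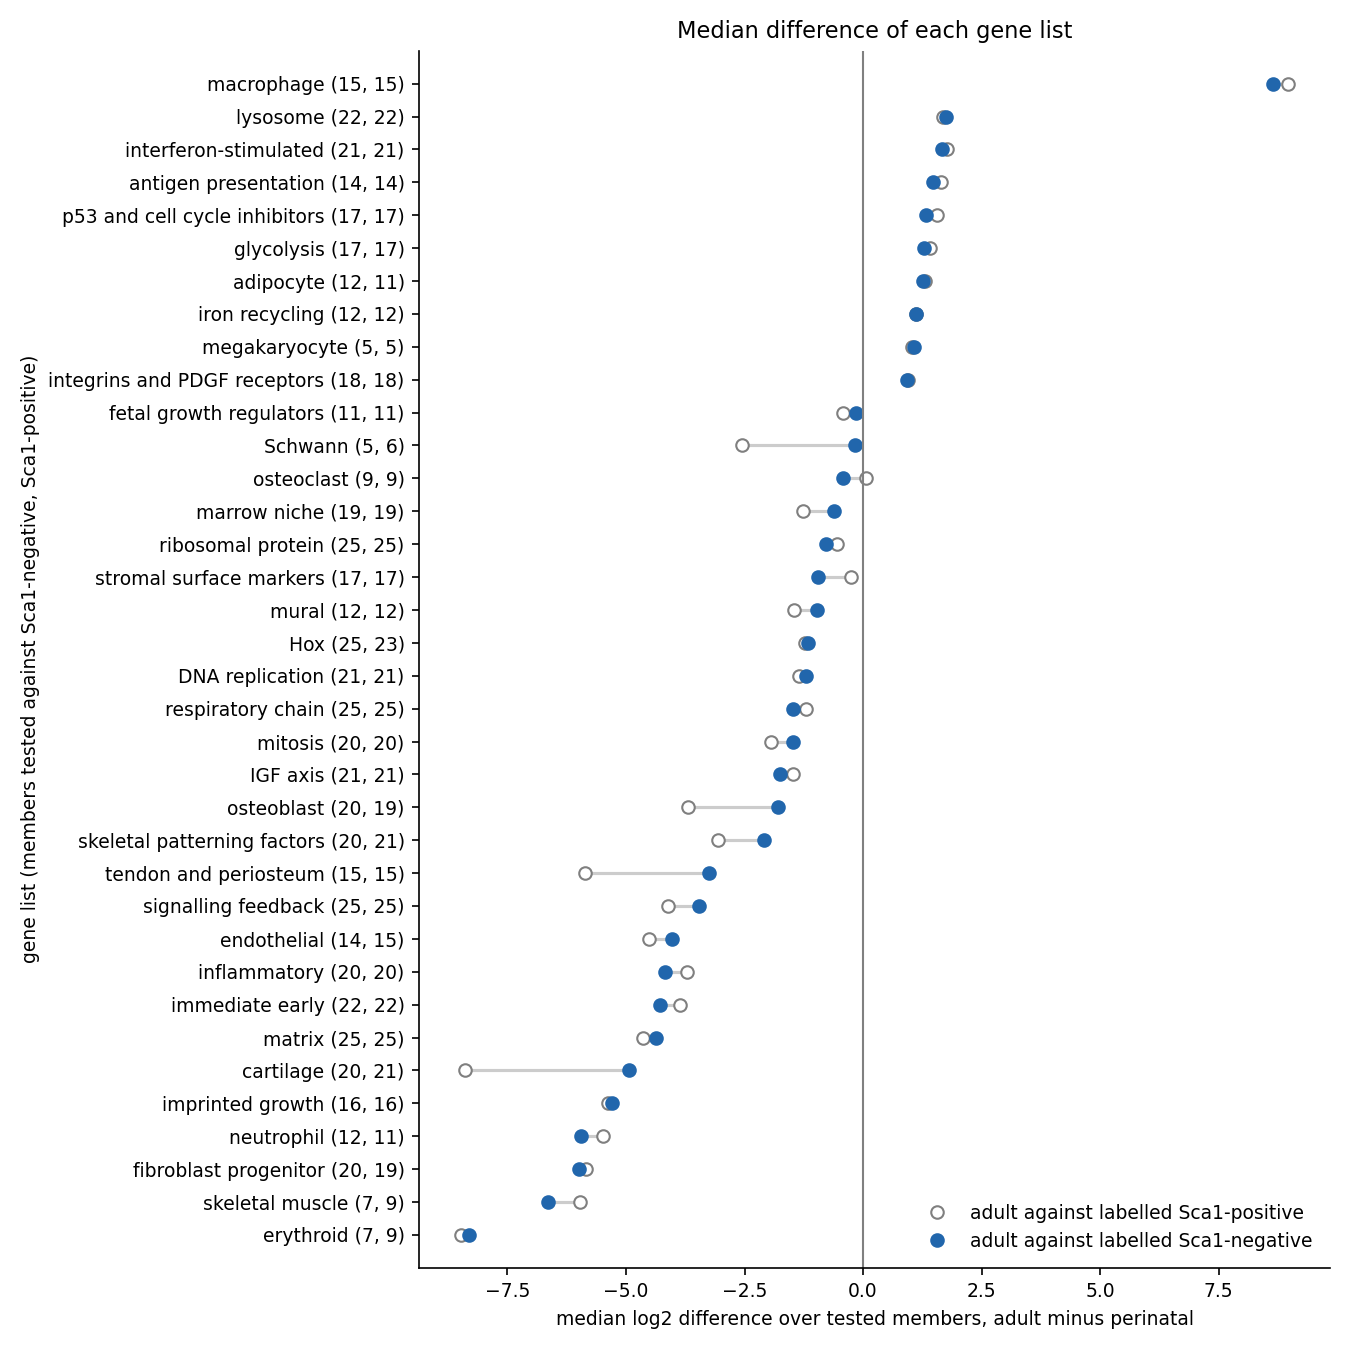
Median log2 difference, adult minus perinatal, of each gene list with at least 5 tested members, against labelled Sca1-negative (filled) and labelled Sca1-positive libraries (open), with genes at 0 in all adult libraries set to their bound and the numbers tested in brackets. Macrophage lies at 8.66 and 8.97, and the cartilage, osteoblast, tendon and Schwann lists have filled points well to the right of the open ones.

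Cell cycle inhibitors and p53 targets were mostly higher: 12 of 17 tested members (18 listed) rose, 3 fell and 2 were not called. Cdkn2b, an inhibitor of the kinases that start the cell cycle, stood at 39.4, 59.5 and 59.5 CPM against 1.15 and 1.21 (log2 difference 5.42 ± 0.31, edgeR adjusted p = 7.2e-06). The p53 targets Ccng1 and Mdm2 were higher by 3.07 and 1.54, but Cdkn1a, the best known target, was lower by 1.94 and Trp53 itself by 0.75, a call lost in the fit of 8 libraries. Cdkn2a, a marker of ageing cells, stood in the adult table only, with 1509, 2192 and 1491 counts in adult and 0 in each labelled Sca1-positive library.

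Integrin and PDGF genes were higher in 11 of 18 tested members (19 listed) and lower in 3. Itgb2, the leukocyte integrin chain, was higher by 9.69, Itga4 by 5.97 and Pdgfb by 6.08 (a call lost with a replicate block), while Itgb3, the chain that pairs with CD51 on osteoclasts, was lower by 0.99, a call lost in the fit of 8 libraries. Of 17 stromal surface markers (18 listed) 4 were higher and 13 lower, or 8 lower in the fit of 8 libraries. Alcam was higher by 6.32, and Anpep stood at 769, 458 and 687 CPM in adult against 137 and 170. Fap, an activated fibroblast protease, was lower by 6.77 and Pdpn by 4.69.

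Markers of other cell types that a marrow sort could hold were also measured. Of the mural genes 3 contractile ones were higher, Acta2 at 810, 1324 and 1309 CPM against 78.2 and 96.5, Tagln by a log2 difference of 4.77 and Cnn1 by 5.32. Other contractile genes did not share this: Myh11 (0.24) and Myl9 (-0.20) were not called and Des was lower by 2.87. The pericyte genes Rgs5 and Kcnj8 were lower by 7.34 and 9.78. Over the 12 mural members 3 were higher and 6 lower, against 34.8% and 38.6% of all genes tested. Of 14 tested endothelial genes (15 listed) 12 were lower and 1, Kdr, higher, with the vessel gene Cldn5 lower by 9.59. Of 12 neutrophil genes (14 listed) 11 were lower and 1, Csf3r, higher, with S100a9 at least 135-fold lower. Of 7 tested erythroid genes (14 listed) 6 were lower, with the alpha globin Hba-a1 at 0 in all 3 adult and at 123 and 341 CPM in labelled Sca1-negative libraries, at least 1299-fold lower. Reads of the globin genes may be split with near-identical copies. The erythroid list took 0.0322 to 0.0966% of labelled Sca1-negative counts and 0.000334 to 0.000566% of adult counts. All 7 tested skeletal muscle genes (11 listed) were lower, led by Tnnc2, at least 731-fold lower. When genes at 0 in a group were left out, the lower counts became 6 for neutrophil, 1 for erythroid and 4 for muscle genes. The part of these cells in the other differences was not tested.

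The osteoclast list, close to the macrophage lineage, had 4 of 9 tested members (14 listed) higher and 4 lower, or 2 lower in the fit of 8 libraries. Of all genes tested 34.8% were higher and 38.6% lower. This split, and those of megakaryocyte and Schwann cell genes below, are thus not read as traits of the lists. Tnfrsf11a, the receptor for the osteoclast-forming signal, was higher by 6.72 and the proton pump gene Tcirg1 by 4.48, while Acp5 and Ctsk, enzymes of mature osteoclasts, were lower by 3.30 and 2.59. The adipocyte list was higher in 7 and lower in 3 of 12 tested members (14 listed), with the transcription factor Cebpa, also used by myeloid cells, higher by 5.45 and Adipoq lower (-6.30). Of the 3 tested B lineage genes (12 listed) 2 were higher and 1 lower, which became 1 and 0 without adult replicate 2 or without labelled Sca1-negative replicate 2, and 2 and 0 without adult replicate 1, without labelled Sca1-negative replicate 3 or with thinned counts. Of 5 megakaryocyte genes (10 listed) 2 were higher and 2 lower. Of 5 Schwann cell genes (9 listed) 2 were higher and 2 lower, with 1 higher without labelled Sca1-negative replicate 3. No T or NK cell gene could be tested.

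The genes with no reads in a group are given as counts within the joined tables. At least 50 counts in each labelled Sca1-negative library with 0 in all adult libraries were found for 101 genes, 19 of them pseudogenes, and the reverse for 1 gene, the pseudogene Pgam1-ps2. Thbs4, Nrk, Fxyd6 and Agtr2, the gene of a fetal angiotensin receptor, were among those with the highest counts. Rps12l1 and Pgam1-ps2 have near-identical parent genes, so their zeros are uncertain. The join leaves out 242 genes with at least 50 counts in each adult library that the Sca1 table does not list, and 10 genes with at least 50 counts in each labelled Sca1-negative library that the adult table does not list, so the counts of 101 and 1 were set in part by the join and are not compared with each other.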

How the data were processed

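Raw gene counts and length-scaled abundances (TPM) were deposited by the authors in 1 table per comparison. Per the submitters' processing notes, Trimmomatic 0.32, DESeq2 and the mm10 genome were used. Which aligner, counter, annotation and strand setting were applied is not given in the sources used here. Adult and labelled Sca1-negative columns were joined on Ensembl gene ID (16507 and 14267 genes, 14252 in both). The join held 98.0 to 98.3% of adult and 99.9% of labelled Sca1-negative counts. Libraries labelled Sca1-positive 2 and 3 stand in both tables and were equal for 100% of joined genes, so for these libraries the tables hold identical counts.

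Counts were filtered (filterByExpr, minimum count 10), scaled by TMM and tested with edgeR 4.0.16 (robust quasi-likelihood, R 4.3.3), Benjamini-Hochberg adjusted over all genes tested, with calls at adjusted p under 0.05. With 3 against 2 libraries, 3 residual degrees of freedom remained. CPM values use the TMM totals of the 8 libraries. A fold against a group at 0 is a bound computed at 3 counts per library. TPM values are the authors' own.

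Gene positions are from GENCODE M21, and promoter windows from RefSeq (GRCm38.p6, first window per symbol). Genes were named by rule: the sort and IGF genes, the 12 largest called differences per direction, up to 4 called members per list by adjusted p, genes whose call depends on the perinatal group, and genes at 0. Others named are list members chosen after their values were seen, as were the motifs. The comparison and lists were chosen with earlier results of these data known, and some genes stand in several lists. Alternatives were upper quartile scaling, DESeq2 1.42.0, no filter, each library left out, a replicate block, a fit of 8 libraries, thinned counts, whole-table totals, and fits without genes at 0 or listed genes in the scaling. A further setting left out genes counted differently between the tables. It removed no gene and equals the main fit, so it is no separate check among the 15. For the comparisons with the labelled Sca1-positive group, the only alternatives were upper quartile scaling, no filter and each library of that group left out. The main fit was also run on counts simulated with a common dispersion and few changed genes. That setting is unlike these data, so error rates here were not measured. Some genes are not reported here.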

Additional observations from a re-analysis of the deposited data

How the results depend on the processing

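Against the labelled Sca1-negative libraries, the 4626 higher and 5133 lower genes became 4350 and 5429 under upper quartile scaling, 4643 and 5370 with DESeq2, and 4740 and 5474 without a filter. Leaving out each adult library in turn gave 4256 to 4424 higher and 4586 to 4798 lower genes. Against the labelled Sca1-positive group, only its own libraries were left out in turn, which gave 4451 to 5191 higher and 5048 to 5824 lower genes. Over the same omissions, the counts of 0 and 0 between the perinatal groups lay at 0 to 477 and 0 to 692. The upper ends are those without labelled Sca1-positive replicate 1. How these background counts depend on single adult or labelled Sca1-negative libraries was not tested. With a replicate block 4668 genes were higher and 5047 lower. Deviations of libraries with the same number correlated at 0.219 for number 2 and 0.152 for number 3. The 2 labelled Sca1-negative deviations are exact opposites by construction, so these values are not independent of each other. Just 2 pairs exist and no label ties them, so they share only a number. The median of all genes moved from -0.08 to -0.18 under upper quartile scaling and -0.20 with DESeq2. Of 605 list members tested, 519 were called; 64 of these lost the call and 42 others gained it in at least 1 of 15 settings, with no called member changing sign. Of 188 genes named by rule, 13 changed call. The marrow niche median moved from -0.60 to -0.21 without adult replicate 1, and down by over 1.5 times without adult replicate 2. With 2 perinatal libraries, small differences are not resolved, and a lone perinatal library is assumed to vary like the others.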
